A study of Bos taurus with 2 samples.

Results

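The vimentin gene and 3 genes whose products lie in, act on or are associated with the extracellular matrix were described in bovine embryos that had or had not formed a blastocyst. The genes were VIM (ENSBTAG00000018463, entry VIME_BOVIN), MMP2 (ENSBTAG00000019267, MMP2_BOVIN), MXRA8 (ENSBTAG00000012247, MXRA8_BOVIN) and IGFBP7 (ENSBTAG00000019368), 4 of the 19043 annotated genes in the count tables. They were chosen by their higher counts in degenerative embryos and by the known roles of their proteins, so that their differences between the libraries are given as a description, without a test. All 4 had at least 10 raw counts over both libraries, as did 13171 genes in all.

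The data came from Bos taurus embryos made by in vitro fertilization (IVF), in which oocytes taken from cow ovaries are matured and fertilized in culture with bull semen. On Day 5 embryos without compaction were set aside, and on Day 8 the others were sorted by their shape. One pool held 20 blastocysts, which showed an inner cell mass and a fluid-filled cavity, and the other held 20 degeneratives, which had stopped at the compacted morula. No treatment set the groups apart, and embryo sex, sire and dam were not used here. RNA of each pool was linearly amplified and sequenced without regard to strand, which gave 1 library per condition.

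Vimentin is the intermediate filament protein of mesenchymal cells, where it forms a network around the nucleus, whereas epithelia such as the trophectoderm, the outer layer of the blastocyst, build theirs mainly from keratins. MMP2 is a secreted gelatinase that is made as an inactive precursor and degrades type IV collagen, the main collagen of basement membranes. MXRA8 is a membrane protein with immunoglobulin-like domains that is also a receptor for some alphaviruses, and IGFBP7 is a secreted protein that binds insulin and insulin-like growth factors and is deposited in matrix. Around the blastocyst stage the embryo lays down its first basement membrane, and genes of this kind are otherwise known best from fibroblasts, endothelium and stroma.

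Counts of annotated genes summed to 10687008 in the blastocyst library and 6514505 in the degenerative library, a ratio of 1.64. This is not a ratio of sequencing depths. The paper reports similar numbers of sequenced and of uniquely mapped fragments for both pools, and a larger intronic share in degeneratives. At these sums 3 counts, taken as the least that stands clear of 0, equal 0.281 and 0.461 CPM, the raw count scaled to a fixed sum per library. A raw count is the number of sequenced fragments lying wholly in exons that every isoform of a gene contains. The normalized count is the authors' quantile-normalized value, which gives both libraries nearly the same distribution. Neither is corrected for gene length, so that levels of different genes were not compared as amounts of mRNA. With 1 library per condition no value has an error between replicates. The intervals below are exact 95% intervals (Poisson for a count, binomial for shares and ratios) that cover counting error only. A ratio of ratios has the exact conditional interval of an odds ratio instead. Copies made by amplification are not separate molecules, so that the true error can be larger. In pooled embryos, fewer cells of a type and less RNA per cell cannot be told apart.

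All 4 genes had several times more counts in degeneratives than in blastocysts, although the counts of annotated genes had the smaller sum in degeneratives. Their raw counts summed to 1979 in the first library and 10882 in the second, a 5.499-fold difference (5.24 to 5.77). As a share of all counts this was 0.0185% (0.0177 to 0.0194) against 0.167% (0.164 to 0.170). All 4 differed by at least 4-fold in normalized counts. Among all 13171 genes, 374, or 2.84%, were at least 4-fold higher in degeneratives, and 175, or 1.33%, at least 4-fold lower. Since the genes were chosen on this contrast, their count is not read against these shares.

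**Figure D1:**
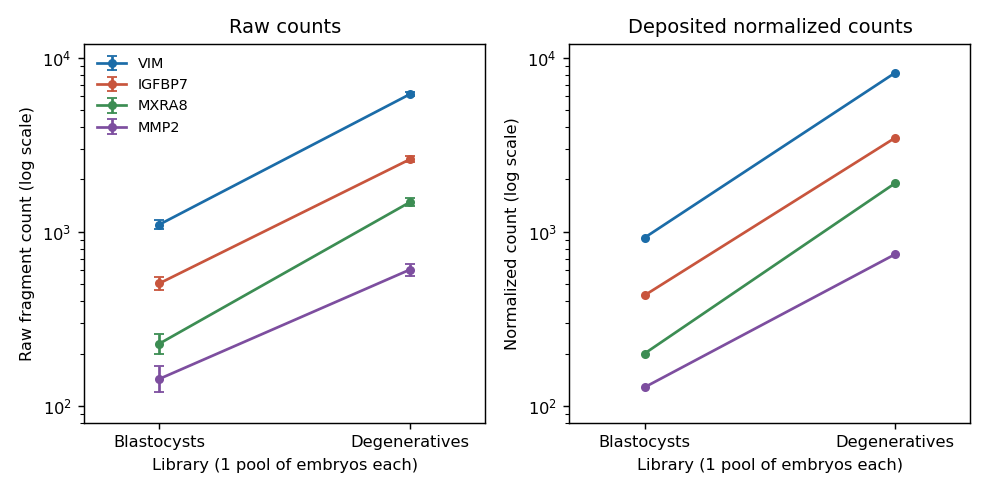
Raw counts (left) and deposited normalized counts (right) of VIM, IGFBP7, MXRA8 and MMP2 in the blastocyst and the degenerative library, on log axes. Points are single libraries, bars on raw counts are exact 95% Poisson intervals, and each line joins the values of 1 gene, all of which are higher in degeneratives, VIM rising from 926 to 8208 normalized counts.

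VIM had 1102 raw counts in blastocysts (1038 to 1169) and 6181 in degeneratives (6028 to 6337). In CPM this was 103 (97.1 to 109) and 949 (925.3 to 972.7). The normalized counts were 926 and 8208, a ratio of 8.86 (8.31 to 9.46) and a log2 ratio of 3.15 on the log2(normalized count + 1) scale (3.05 to 3.24). The intervals of the 2 libraries lay far apart. In rank of raw counts VIM stood at place 1814 of all annotated genes in blastocysts and at place 143 in degeneratives. The gene was thus already well covered in blastocysts, with more counts than 90.5% of genes, and in degeneratives it exceeded 99.2%. Its gain of 7282 normalized counts was the 7th largest of any annotated gene.

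IGFBP7 was the next most highly counted. Its raw counts were 506 (462.9 to 552.1) in blastocysts and 2612 (2513 to 2714) in degeneratives. Normalized counts were 432 and 3472, a ratio of 8.04 (7.30 to 8.86) and a log2 ratio of 3.004 (2.87 to 3.14). The gene moved from place 3358 to place 422 by raw count. Its normalized gain of 3040 ranked 34th.

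MXRA8, the membrane protein of the group, had the largest ratio. It had 228 raw counts (199.4 to 259.6) in blastocysts and 1482 (1407.5 to 1559) in degeneratives, or 21.3 CPM (18.7 to 24.3) and 227 CPM (216 to 239). Normalized counts were 200 and 1905, a ratio of 9.53 (8.28 to 11.0) and a log2 ratio of 3.25 (3.04 to 3.45). It climbed by 4234 places, from 5097 to 863, the widest shift in rank of the 4. VIM and IGFBP7, at places 1814 and 3358 in blastocysts, could not have climbed as far.

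MMP2, the matrix-degrading enzyme, had the fewest counts and the smallest ratio. Raw counts were 143 (120.5 to 168.5) in blastocysts and 607 (559.7 to 657.3) in degeneratives, or 13.4 CPM (11.3 to 15.8) and 93.2 CPM (85.9 to 101). Normalized counts were 128 and 744, a ratio of 5.81 (4.84 to 7.02) and a log2 ratio of 2.53 (2.26 to 2.80). The gene moved from place 6071 to place 2219, so that 88.3% of genes still had fewer counts than MMP2 in degeneratives, against 68.0% in blastocysts.

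The 4 log2 ratios were next set among those of all genes. Ordered by log2 ratio, MXRA8 was at place 72 of 13171, VIM at 81, IGFBP7 at 98 and MMP2 at 183. The genes ahead of them mostly had fewer counts, where ratios spread widely. All 80 genes ahead of VIM and 162 of the 182 ahead of MMP2 had a lower mean level. Of the 564 genes whose mean level over both libraries was at least that of VIM, none had a larger log2 ratio than VIM. The same held for MXRA8 among the 2583 genes at or above its own mean level. IGFBP7 was at place 3 of 1344 and MMP2 at place 21 of 4118. These places are from the deposited normalized counts, describe the 2 libraries and follow in part from how the genes were chosen. Over the 6 scalings given below, the place among 13171 genes ran from 72 to 130 for MXRA8 and from 81 to 183 for VIM. It ran from 98 to 219 for IGFBP7 and from 179 to 350 for MMP2. The places among genes at or above a mean level were not computed under the other scalings.

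**Figure D2:**
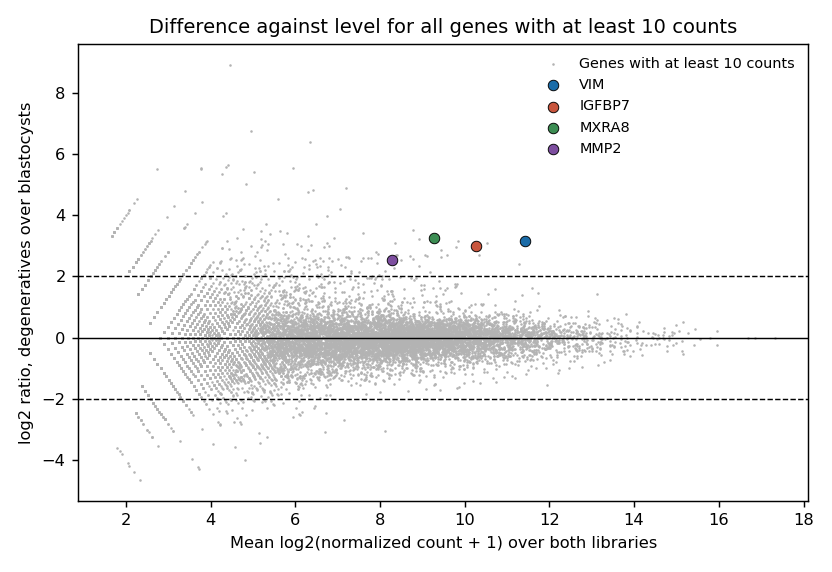
Log2 ratio of degeneratives to blastocysts against the mean log2(normalized count + 1) over both libraries for the 13171 genes with at least 10 raw counts (grey) and the 4 genes described here (coloured). Dashed lines mark 4-fold, and VIM, at a log2 ratio of 3.15, lies above every gene to its right.

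Each gene was also set beside the 500 genes nearest to it in mean log2 level, which gives the spread between the libraries at its own depth. Around VIM, the 500 genes had a median log2 ratio of 0.02 with an SD of 0.42, and 486 of them were within 2-fold. One of them, or 0.2%, was at least 4-fold higher in degeneratives, and none exceeded VIM. That gene was CLUS_BOVIN, the entry of clusterin, a secreted chaperone, at a log2 ratio of 2.42. For IGFBP7 the median of the 500 genes was 0.00 (SD 0.42), and the share at least 4-fold higher was again 0.2%, a single gene, LUM_BOVIN, the matrix proteoglycan lumican, at 2.71.

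At the lower mean levels of MXRA8 and MMP2 the neighbouring genes spread more. The 500 genes around MXRA8 had a median of 0.00 and an SD of 0.49, 4 of them, or 0.8%, were at least 4-fold higher, and none exceeded MXRA8. The closest to it was SERPH_BOVIN, the collagen chaperone SERPINH1, at 2.87. Around MMP2 the median was -0.05 and the SD 0.55. Here 5 genes, or 1.0%, were at least 4-fold higher, and 3 had a larger log2 ratio than MMP2. These were ARGFX, a homeobox gene, at 3.09, 5NTD_BOVIN, the membrane nucleotidase NT5E, at 2.71, and T176A_BOVIN, the entry of a transmembrane protein, at 2.70. These places depended on which genes were taken as neighbours. Among the 200 nearest none exceeded MMP2, whereas 2 genes exceeded IGFBP7 among the 1000 nearest, and 2 exceeded IGFBP7 and 1 MXRA8 among the 500 nearest by degenerative level alone.

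**Figure D3:**
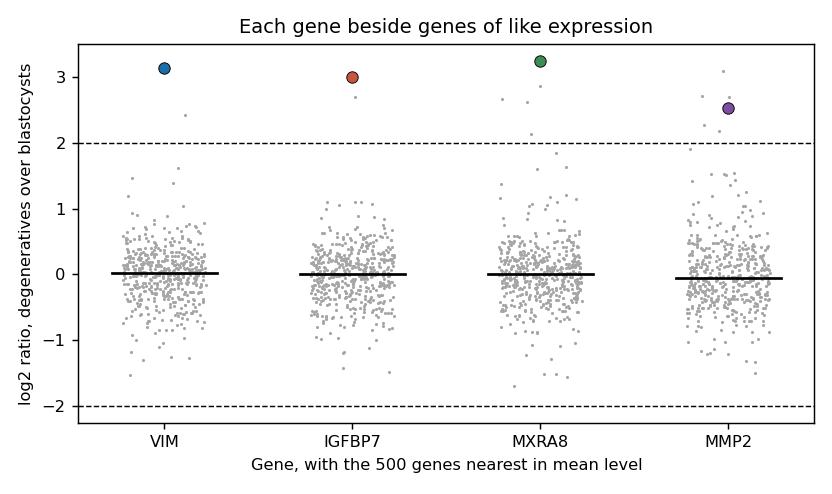
Log2 ratio of degeneratives to blastocysts of VIM, IGFBP7, MXRA8 and MMP2 (large points), each beside the 500 genes nearest to it in mean level (small points, spread sideways at random for legibility). Black bars are medians, between -0.05 and 0.02, dashed lines mark 4-fold, and 3 genes lie above MMP2 while none lies above the others.

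The raw counts of the 4 genes relative to one another within a library are not changed by any scaling with 1 factor per library, whereas quantile normalization can change them. VIM made up 55.7% (53.5 to 57.9) of the counts of the 4 genes in blastocysts and 56.8% (55.9 to 57.7) in degeneratives, and IGFBP7 25.6% (23.7 to 27.6) and 24.0% (23.2 to 24.8). For both genes the intervals of the libraries overlapped. MXRA8 went from 11.5% (10.1 to 13.01) to 13.6% (12.98 to 14.3) and MMP2 from 7.23% (6.12 to 8.46) to 5.58% (5.15 to 6.03). The intervals of MXRA8 met at their ends and those of MMP2 did not overlap. No gene moved by more than 2.10 percentage points, although for a gene with a small share a few points can be a large relative change.

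In raw counts, VIM exceeded IGFBP7 by 2.18-fold (1.96 to 2.42) in blastocysts and 2.37-fold (2.26 to 2.48) in degeneratives. The ratio of these ratios was 1.09, with an interval of 0.967 to 1.22 that includes 1. Of the 6 pairs, the ratio between the genes differed beyond counting error in 3. MXRA8 over MMP2 went from 1.59 to 2.44, a change of 1.53-fold (1.21 to 1.94), VIM over MMP2 from 7.71 to 10.2, a change of 1.32-fold (1.08 to 1.61), and IGFBP7 over MXRA8 from 2.22 to 1.76, a change of 0.794-fold (0.668 to 0.943). For VIM over MXRA8 (0.863, 0.737 to 1.01) and IGFBP7 over MMP2 (1.22, 0.983 to 1.499) the interval included 1. An interval that includes 1 does not show that a pair changed alike. The intervals were not adjusted for the 6 pairs. How often other pairs of genes at these levels differ beyond counting error was not counted. The 3 of 6 is therefore not read as a trait of these genes.

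**Figure D4:**
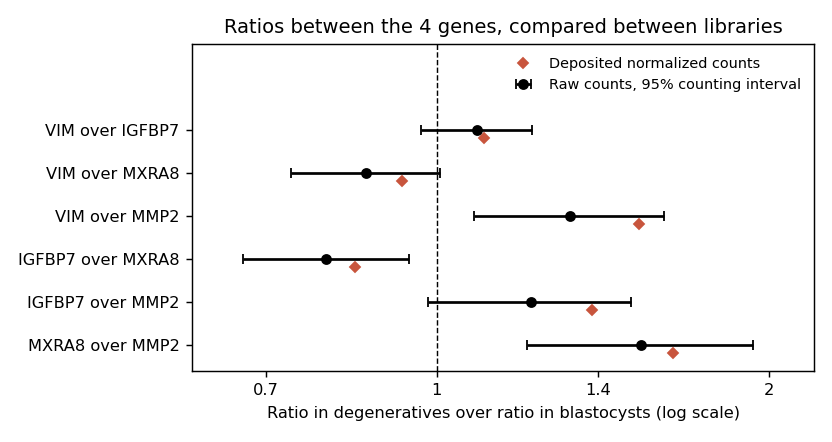
Ratio between the raw counts of a pair of genes in degeneratives divided by the same ratio in blastocysts, on a log axis, for the 6 pairs of the 4 genes. Bars are exact 95% intervals for counting error, diamonds are the same quantity from deposited normalized counts, and the dashed line at 1 marks no change between the libraries, which 3 of the 6 bars leave out.

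The size of the difference depended on the scaling between the libraries. Quantile normalization lowered the blastocyst count of each of the 4 genes, to 0.840 of its raw count for VIM and 0.895 for MMP2, and raised the degenerative count, to 1.33 for VIM and 1.23 for MMP2. Relative to the raw ratio, the normalized ratio was 1.58 times larger for VIM, 1.56 for IGFBP7, 1.47 for MXRA8 and 1.37 for MMP2, in the order of their counts. A single factor per library would have moved all 4 alike. In consequence, VIM over MMP2 changed by 1.52-fold between the libraries in normalized counts, against 1.32-fold in raw counts.

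Over 6 scalings the log2 ratio lay between 2.53 and 3.20 for VIM, 2.41 and 3.08 for IGFBP7, 2.74 and 3.41 for MXRA8, and 2.12 and 2.79 for MMP2. As folds the lowest were 5.78, 5.31, 6.69 and 4.37, all from scaling to the uniquely mapped fragments of each library. The highest were 9.20, 8.47, 10.7 and 6.96, all from scaling to the summed counts. The ratios thus remained above 4-fold under every scaling tried. With uniquely mapped fragments the counting interval of MMP2 reached below 4-fold, at a log2 ratio of 2.12 (1.85 to 2.39). The paper cautions that scaling to all mapped fragments may understate expression where the intronic share is higher, which it reports for degeneratives. The order of the genes was the same throughout, with MXRA8 first, then VIM, IGFBP7 and MMP2, although neither VIM and MXRA8 nor VIM and IGFBP7 differed beyond counting error in raw counts. The median of all 13171 genes moved as well, from -0.34 with uniquely mapped fragments to 0.32 with summed counts, against -0.03 in the deposited normalized counts.

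The ratios were also measured from the median of the 500 genes of like expression. With the same neighbours kept throughout, 1 factor per library cancels by construction, and quantile normalization moves genes of a like level nearly alike, so that the narrow ranges follow from the measure and say nothing of the genes. VIM was 3.12 to 3.15 above its neighbours on the log2 scale over the 6 scalings, IGFBP7 2.96 to 3.01, MXRA8 3.21 to 3.25 and MMP2 2.58 to 2.60. Measured from the median of all genes the range was wider, 2.87 to 3.18 for VIM and 2.46 to 2.56 for MMP2. With one factor per library, the neighbours of VIM lay 0.27 to 0.28 lower than the median gene on the log2 scale, and with quantile normalization 0.04 to 0.05 above it.

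**Figure D5:**
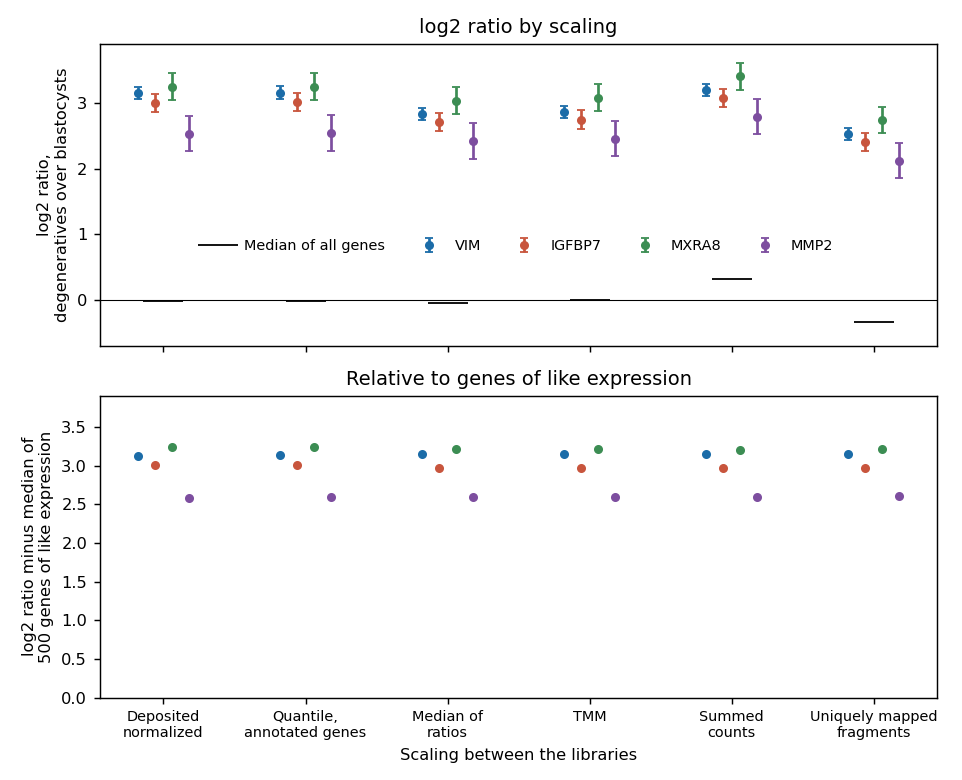
Log2 ratio of degeneratives to blastocysts of the 4 genes under 6 scalings between the libraries (top, bars are exact 95% intervals for counting error, black dashes the median of all genes with at least 10 counts) and the same ratio minus the median of each gene's 500 neighbours in level (bottom). The upper values shift together with the scaling, by up to 0.67 for VIM, whereas in the lower ones a factor per library cancels by construction.

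The genes whose pair of values was most like each member were found by distance in log2(normalized count + 1) over the 2 libraries. This likeness rests on 2 values per gene. No gene lay within 0.5 of VIM, and the nearest was clusterin at 0.55, with 1080 and 5794 normalized counts. Nearest to IGFBP7 were lumican at 0.24, CSRP3_BOVIN, a muscle LIM protein, at 0.39, and Q6IED4_BOVIN at 0.60. MXRA8 had SERPINH1 at 0.37, TPA_BOVIN, the tissue plasminogen activator PLAT, at 0.46, and CRYAB_BOVIN, a small heat shock protein, at 0.48. MMP2 had T176A_BOVIN at 0.20, an unnamed gene at 0.20 and NT5E at 0.21. Within 0.5 there were 11 genes for MMP2, 5 for MXRA8 and 2 for IGFBP7.

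Further genes that act in or on the matrix, and the membrane nucleotidase NT5E, could be named only where the study lists them as differing between these libraries. Their direction is therefore no independent evidence. Lumican went from 594 to 2480 raw counts, and decorin (DCN, PGS2_BOVIN), a related collagen-binding proteoglycan, had 104 and 527. PLAT, which activates plasminogen to plasmin, a protease of matrix and fibrin, had 250 and 1096. SERPINH1, needed for collagen folding, had 297 and 1461, and NT5E, a surface marker of cultured mesenchymal cells, had 145 and 698. All 5 were higher in degeneratives, with raw ratios between 4.18 for lumican and 5.07 for decorin. Those of the 4 genes ran from 4.24 for MMP2 to 6.50 for MXRA8, so that lumican lay just below MMP2 and the other 4 between these ends. In log2 ratio of normalized counts the 5 lay between 2.67 for PLAT and 2.87 for SERPINH1, above MMP2 and below the other 3.

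Whether the wider mesenchymal and matrix groups moved with the 4 genes could not be read from these tables, which give Ensembl identifiers without names. Of 21 mesenchymal genes listed for this purpose 2 could be paired with an identifier, VIM and NT5E, and of 31 structural matrix genes 2, lumican and decorin. Of 22 genes for matrix proteases and their inhibitors 2 could be paired, MMP2 and PLAT, of 15 genes of the insulin-like growth factor system IGFBP7 alone, and of 19 intermediate filament genes VIM alone. Markers of the embryo's own lineages, of cumulus and granulosa cells, of blood and of the oocyte could not be paired at all, nor could the 15 epithelial genes. Of 8 fibroblast and stroma markers 2 could be paired, again lumican and decorin. The labelled cell types were therefore not checked against their markers, and the part of other cell types in the higher counts was not tested.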

How the data were processed

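RNA from pools of 20 embryos was linearly amplified, and 1 library was made from each pool. The authors aligned trimmed reads with TopHat 1.0.13 to Btau4, masked for repeats, and took fragments within constitutive exons not shared between genes, using SAMtools and BEDTools. The deposited raw counts are whole numbers without normalization. The deposited normalized column is a score, the count quantile normalized by the authors with limma and rounded. The paper describes this for annotated genes and again with unannotated units added. Recomputed on annotated genes alone, 75.4% of the deposited values were equal in blastocysts and 70.1% in degeneratives. Amplification favours 3' ends, and repeat masking can lower counts of repeated sequence.

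Log2 ratios are degeneratives minus blastocysts of log2(normalized count + 1), a scale that understates the change of low genes. Their intervals are exact binomial intervals of the raw ratio, shifted. Genes with at least 10 raw counts over both libraries formed the background. With 1 library per condition no test was made. Alternatives were limma 3.58.1 quantile normalization of annotated genes alone, edgeR 4.0.16 TMM factors, median-of-ratios factors, summed counts and uniquely mapped fragments as library sizes (the last taken from the paper), pseudocounts of 0.1 and 5, count minimums, fold limits and other sets of genes of like expression. The genes nearest in level were kept the same across scalings. Intervals and ratios were checked on simulated Poisson counts, which hold no amplification copies and no variation between pools (Python 3.11.15, scipy 1.17.1, R 4.3.3).

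Members, gene lists and settings were chosen with earlier results of these data known. Named were the 4 members, the 3 genes nearest to each in both libraries where a name was at hand, and 5 genes of the study's own list (matrix genes and NT5E). Clusterin, lumican, SERPINH1 and ARGFX as genes with high ratios at like expression were singled out after their values were seen. Names came from the paper and its list, since the RefSeq table at hand paired none of its 37063 genes with an Ensembl identifier. Sequences of the genes and their coordinates were not used here.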

Additional observations from a re-analysis of the deposited data

How the results depend on the processing

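All 4 genes stayed higher in degeneratives, and all 4 past 4-fold, under every scaling and pseudocount tried. The counting interval of MMP2 nevertheless reached below 4-fold with uniquely mapped fragments. With median-of-ratios factors the log2 ratios were 2.83 for VIM, 2.71 for IGFBP7 and 3.03 for MXRA8, with TMM factors 2.87 for VIM and 2.75 for IGFBP7, and with uniquely mapped fragments 2.53, 2.41, 2.74 and, for MMP2, 2.12, outside the counting intervals of the reported values. The median of the 4 genes, 3.08, became 2.77, 2.81 and 2.47 in these settings.

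The share of all genes at least 4-fold higher, 2.84%, was 4.31% after median-of-ratios scaling, 4.58% with TMM, 6.77% with summed counts, 1.28% at a pseudocount of 5 and 1.5% with a minimum of 100 raw counts. It was 9.51% at a limit of 2-fold and 0.759% at 8-fold. Of the 4 genes, 3 were past the 8-fold limit, MMP2 being the exception. Genes of like expression with a larger log2 ratio numbered 2 for IGFBP7 among the 1000 nearest and among the 500 nearest by degenerative level, 1 for MXRA8 by degenerative level, and 0 for MMP2 among the 200 nearest. The other 54 alternative values moved less than the counting interval or by at most 1.5 times. For the median of the 4 genes, the interval used was that of their summed raw counts. Ratios between the genes from normalized in place of raw counts, and ratios relative to neighbours or to all genes, were settings added after seeing the data. Leaving out a replicate or a test of replicate error was not possible with 1 library per condition. No paired analysis was possible because each condition had 1 library.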
